A study of Mus musculus with 2 samples.

Results

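Vascular endothelial cells of the PN15.5 mouse molar were taken as the cells that carried transcripts of 6 endothelial genes. These are Cdh5 (VE-cadherin, the adherens junction protein of endothelium), Pecam1 (a junctional adhesion molecule), Egfl7 (a secreted endothelial factor), Emcn (endomucin, a surface sialomucin), and the VEGF receptors Kdr and Flt1. Members were chosen by the counts of these genes, as cells with 4 or more unique molecular identifiers (UMIs, each 1 captured RNA molecule) summed over the 6. They also had to hold fewer than 4 UMIs over the mural genes Rgs5, Notch3, Kcnj8, Abcc9 and Higd1b, fewer than 6 over the complement genes C1qa, C1qb and C1qc, and no more than 2% of their UMIs from Col1a1. This gate took 921 of the 17780 cells kept, which were those with 200 genes or more and with no more than 20% of UMIs from mitochondrial genes. It took 412 of 8886 cells of the Lipo-Clo library and 509 of 8894 of the Lipo-PBS library. Because the 6 genes chose the members, their levels are given as a description only.

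The libraries hold single cells of C57BL/6J mandibular first molars and the tissue around them, digested with Dispase and Collagenase I. Lipo-Clo mice received clodronate liposomes, which deplete macrophages, by intraperitoneal injection at 40 μg/g from PN3.5 on, repeated every 3 days, and Lipo-PBS mice received vehicle liposomes in the same volume. Each condition is a single library, and how many mice it holds is not given in the sources used here. The conditions could therefore not be tested against each other, and no value below has a replicate check. Intervals cover counting error only, at 95%, by the Clopper-Pearson method for a share and by its counterpart for the ratio of 2 Poisson counts. Members held 941123 UMIs in Lipo-Clo (median 1337 per cell) and 1354927 in Lipo-PBS (median 1831 per cell), while the medians over all kept cells were 2672.5 and 2754.5. The libraries share 30 cell barcodes, none of them between members.

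Endothelial cells line blood and lymphatic vessels, and their arterial, capillary, venous and lymphatic forms differ in the genes they use. Venules carry the selectins and adhesion molecules that capture leukocytes, capillaries carry proteins that handle lipids, and lymphatic endothelium depends on the transcription factor PROX1. Endothelium responds to interferon by raising MHC class I, the immunoproteasome and a set of antiviral proteins. Macrophages accompany growing vessels of both kinds.

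Members carried the endothelial programme in both libraries. Of 29 further pan-endothelial genes that the gate did not use, such as Cldn5, Tie1, Tek, Erg, Sox18 and Ramp2, all 29 were in use, meaning that a UMI was found in 10% or more of the members of either library. Their levels, scaled to 1000000 UMIs summed over all members of a library (CPM), added up to 6528 in Lipo-Clo and 6231 in Lipo-PBS. The gate has no sharp lower edge. At 4 UMIs of the gate genes, just inside, 40 Lipo-Clo cells carried these 29 genes at 4021 CPM and 78 Lipo-PBS cells at 3955 CPM. At 3 UMIs, just outside, 41 and 83 cells carried them at 3902 and 3499.5 CPM.

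**Figure D1:**
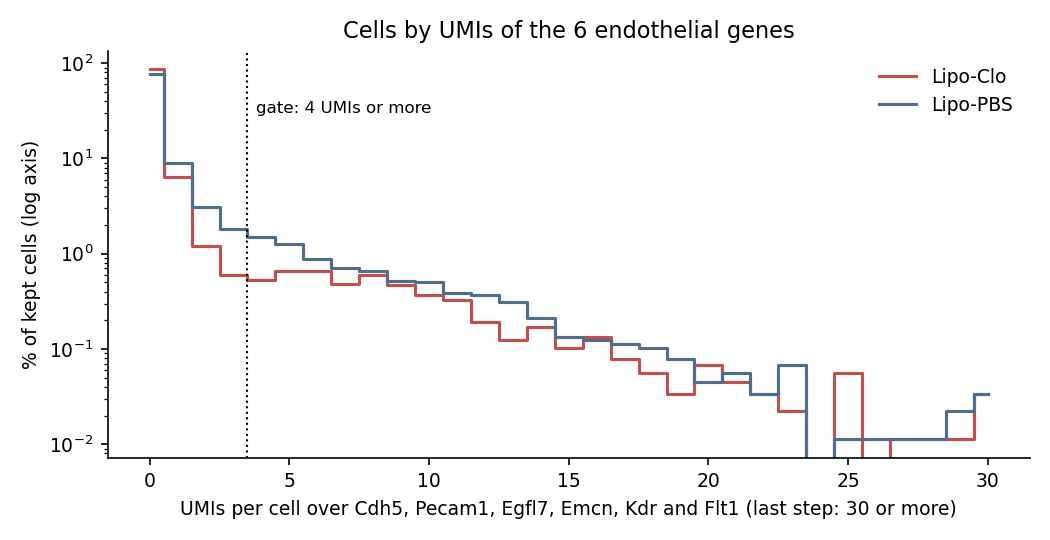
Share of kept cells (y axis, log scale, in %) by the UMIs each cell held over the 6 gate genes (x axis, the last step holding cells with 30 or more) in both libraries, before the limits on other cells. The lines run on through the gate at 4 UMIs without a gap, with 0.596% of Lipo-Clo cells and 1.81% of Lipo-PBS cells at 3 UMIs and 0.529% and 1.5% at 4.

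The limits on other cells took out unequal parts of the libraries. Of 469 Lipo-Clo cells with 4 or more UMIs of the gate genes, 57 (12.2%) were left out, and of 728 Lipo-PBS cells 219 (30.1%). Col1a1 took out 47 and 137 of them, the mural genes 12 and 109, and C1q 1 and 11, with some cells taken out by more than 1 limit. Taken as shares of the 8886 and 8894 kept cells, the 469 and 728 cells lie further apart than the endothelial shares given next. What sets the cells left out apart was not tested.

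Endothelial cells made up 4.64% of kept Lipo-Clo cells (4.21 to 5.09) and 5.72% of kept Lipo-PBS cells (5.25 to 6.23), a log2 ratio of -0.30 (-0.49 to -0.11). Mural cells, gated on the 5 mural genes, were also a smaller share of Lipo-Clo, 452 cells (5.09%) against 679 (7.63%), with a log2 ratio of -0.59 (-0.76 to -0.41). Of endothelial and mural cells together, endothelial cells were 47.7% and 42.8%, and the interval of that log2 ratio, 0.15 (-0.04 to 0.34), took in 0. So did the interval of the endothelial share at a gate of 6 UMIs, -0.14 (-0.36 to 0.08), after thinning of all kept cells to 1000 UMIs, -0.19 (-0.48 to 0.11), and without the mixed subclusters described next, -0.13 (-0.35 to 0.10).

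Clustering showed that the gate holds more than blood-vessel endothelium. Members of both libraries were clustered in a single run that left out genes differing 1.5-fold or more between the libraries, the gate genes and the markers of other cell types, and 7 subclusters resulted. A lymphatic-like subcluster was led by Ccl21a, Mmrn1 and Lyve1 and had 7 of 7 lymphatic markers (Prox1, Lyve1, Flt4, Pdpn, Ccl21a, Mmrn1 and Reln) raised 2-fold or more over the rest. The label vascular endothelium thus covers lymphatic endothelium too. A capillary-like subcluster carried Rgcc, Cd36, Fabp4, Cd300lg and Btnl9, along with nearly as many arterial markers (Sox17, Efnb2, Dll4 and Mecom), and its 10 leading genes held 1 marker of each kind (Btnl9 and Mecom). A venous-like subcluster carried Vwf, Selp, Sele, Vcam1, Lrg1 and Icam1. Another was left unnamed, since it had most markers of tip cells (Esm1, Apln, Kcne3, Nid2 and Trp53i11) but its leading genes held capillary markers (Gpihbp1 and Rgcc). The capillary-like name depended on the clustering. At resolution 0.3 the capillary-like subcluster was the one led by Gpihbp1 (154 and 123 cells), and with the genes past 1.5-fold kept, cells led by Mctp1, Ptprg and Plcb1 were named venous-like (98 and 82 cells). Values below for the capillary-like subcluster are thus for a set of cells led by Plcb1 and Plcl1, whose name is not settled. The other 3 were mixed, with 3 or more of their 20 leading genes from mesenchyme (led by Mfap5), neutrophils (led by S100a8) or epithelium (led by Mt4).

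Lymphatic-like cells were fewer in Lipo-Clo. They numbered 28 there, 0.315% of kept cells (0.209 to 0.455), and 76 in Lipo-PBS, 0.855% (0.674 to 1.07), with a log2 ratio of -1.44 (-2.12 to -0.80). Over all kept cells, 23 and 108 held 4 or more UMIs summed over Prox1, Mmrn1, Lyve1 and Flt4, a log2 ratio of -2.23 (-2.95 to -1.57). The limits on C1q and Col1a1 applied to this count, but the endothelial gate genes were not used. Of these cells, 19 and 70 were members, so this count shares cells and genes with the subcluster. The paper's introduction describes macrophages with LYVE-1 in injured dental pulp, and cells with fewer than 6 C1q UMIs passed. Whether all cells of this count are lymphatic was not tested. Among cells with 1000 UMIs or more the subcluster held 24 and 70 cells, with a log2 ratio of -1.49 (-2.22 to -0.80).

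The unnamed, capillary-like and venous-like subclusters, together called blood-vessel endothelium here, were similar shares of both libraries. They held 278 Lipo-Clo cells (3.13% of kept cells) and 258 Lipo-PBS cells (2.9%), and the interval of the log2 ratio, 0.11 (-0.14 to 0.36), took in 0. Mixed subclusters held 106 cells (1.19%) and 175 cells (1.97%). Among members, the unnamed subcluster made up 32.5% of Lipo-Clo and 19.8% of Lipo-PBS (134 and 101 cells), the capillary-like 20.6% and 14.3% (85 and 73), and the venous-like 14.3% and 16.5% (59 and 84). These shares are of a total that the lymphatic-like and mixed cells also move.

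**Figure D2:**
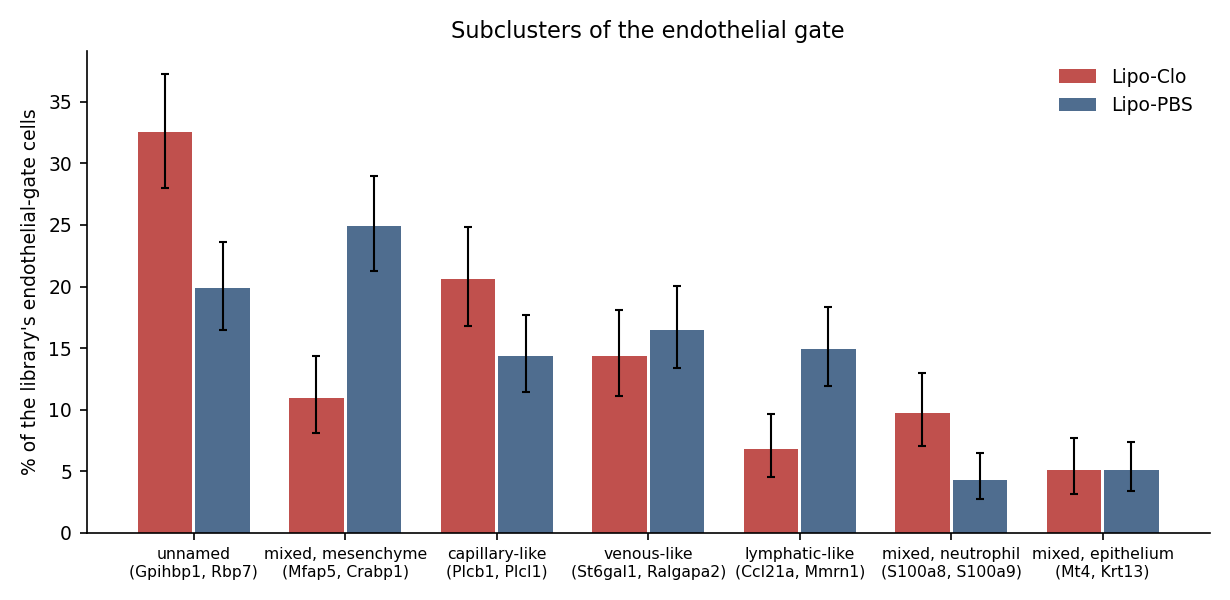
Share of each library's endothelial-gate cells (y axis, %) in each of 7 subclusters, named on the x axis with leading genes. Bars are shares and whiskers exact Clopper-Pearson intervals at 95%, and the lymphatic-like and the mesenchymal mixed subclusters were smaller shares of Lipo-Clo (6.8% against 14.9%, and 10.9% against 24.95%).

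From here on, values are given for Lipo-Clo against Lipo-PBS in that order, and log2 ratios are Lipo-Clo over Lipo-PBS. None of the 6 gate genes reached 1.5-fold. Over the whole gate Flt1, a VEGF receptor that also acts as a decoy, stood at 826 against 553 CPM, and Kdr, the main signalling VEGF receptor of blood vessels, at 555 against 439 CPM. Cdh5 stood at 721 against 628 CPM, Egfl7 at 1105 against 838 CPM, Emcn at 516 against 462 CPM and Pecam1 at 435 against 458 CPM. In blood-vessel endothelium alone their log2 ratios lay between -0.23 (Emcn) and 0.24 (Flt1).

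Over the whole gate 4188 genes were in use, of which 178 (4.25%) were higher by 1.5-fold or more in Lipo-Clo and 531 (12.7%) lower, by size alone, with a median log2 ratio of -0.08. Higher genes were 25.1% of those past the limit, 36.5% with edgeR TMM factors and 35.7% with DESeq2 size factors. In blood-vessel endothelium 2861 genes were in use, of which 224 (7.83%) were higher and 372 (13%) lower, with a median of -0.05. Higher genes were 37.6% of those past the limit there, 49.1% with TMM factors and 58.6% with DESeq2 factors, which moved the median of all genes to 0.07. In all that follows, higher and lower mean by 1.5-fold or more. With no filter on use, 8033 genes had more CPM in Lipo-Clo and 10493 less over the gate, and 6651 and 8515 in blood-vessel endothelium. A gene in use through 1 library alone had to be more frequent there, as were 89 genes in Lipo-Clo and 958 in Lipo-PBS over the gate and 276 and 380 in blood-vessel endothelium, so counts over genes in use are descriptions.

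RNA of other cells differed between the libraries, by cell type and by the cells counted. The 20 mesenchyme markers summed to 6172 against 16666 CPM over the gate, where all 18 in use were lower, beside 12.7% of all genes. In blood-vessel endothelium they summed to 2161 against 3854 CPM, and all 8 in use were lower, beside 13% of all genes. Of these, 7 and 4 were in use through Lipo-PBS alone. Their most abundant gene, Col1a1, stood at 2057 against 6056 CPM over the gate. The 12 neutrophil markers, most abundant S100a9 (9305 against 1377 CPM), summed to 17611 against 2557 CPM over the gate, with Cebpe at 0 in Lipo-PBS. In blood-vessel endothelium they summed to 769.8 against 1449 CPM. There S100a8, S100a9 and Camp were in use through Lipo-Clo alone, so a larger share of its cells held them. The 10 epithelial markers, most abundant Odam, summed to 3325 against 1269 CPM and, in blood-vessel endothelium, to 695 against 363 CPM. The 15 macrophage markers, most abundant Fcer1g and with Ms4a7 at 0 in Lipo-Clo, summed to 1141 against 993 CPM over the gate and to 529 against 625 CPM in blood-vessel endothelium. The 10 erythroid markers, most abundant Hbb-bs, summed to 54619.9 against 54017 CPM and to 83566 against 81164 CPM. Genes are described mainly in blood-vessel endothelium, a set defined only once the subclusters were known. The part of other cells' RNA in the ratios was not tested.

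Most MHC class I and interferon genes in use were higher in Lipo-Clo. In blood-vessel endothelium 11 of the 15 in use were higher and none was lower, with a median log2 ratio of 0.77, beside 7.83% higher and a median of -0.05 over all genes. Of the 15, 4 (H2-T23, Tapbp, Psmb8, Iigp1) were in use through Lipo-Clo alone. Without that filter 25 of the list's 27 genes had more CPM in Lipo-Clo and 2 less, beside 6651 and 8515 of all genes. Over the gate 9 of 16 were higher and none lower, beside 4.25% and 12.7% of all genes, with a median of 0.68. Of the 16, 3 (Tapbp, Psmb9, Iigp1) were in use through Lipo-Clo alone. The gate median was 0.43, under the limit, with an equal mixture of the subclusters in both libraries, and 1.13 without the mixed subclusters. The list had a median of 0.49 in mural cells and 0.22 in all kept cells outside the gate. Whether endothelial cells differ from those was not tested.

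H2-K1, an MHC class I heavy chain, had the highest ratio of the list's genes in use in blood-vessel endothelium, at 425 against 106 CPM (log2 ratio 2.00, 1.502 to 2.54). Outside the gate its log2 ratio was 0.41. H2-D1, a second heavy chain, stood at 493 against 209 CPM (log2 ratio 1.24, 0.85 to 1.63). The chains are close copies, so how their reads were divided between the pair is uncertain. B2m, the light chain that every class I molecule needs, stood at 959 against 419 CPM (log2 ratio 1.20, 0.93 to 1.47).

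Genes of peptide processing and loading had ratios on the same side. Psmb8, a catalytic subunit of the immunoproteasome, stood at 170.0 against 66.2 CPM (log2 ratio 1.36, 0.68 to 2.08). Its partner Psmb9 was not in use in blood-vessel endothelium, at 77.7 against 18.5 CPM. Tapbp, the peptide-loading chaperone tapasin, stood at 89.9 against 58.3 CPM (log2 ratio 0.62, -0.17 to 1.46). The nonclassical class I gene H2-T23 stood at 70.4 against 39.7 CPM (log2 ratio 0.83, -0.12 to 1.83). The last pair had intervals that took in 0.

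Interferon-responsive genes were less uniform. Isg15, a ubiquitin-like modifier, stood at 255 against 103 CPM (log2 ratio 1.30, 0.76 to 1.87). Iigp1, an immunity-related GTPase, stood at 179.7 against 98.0 CPM (log2 ratio 0.87, 0.29 to 1.49). Ifitm3, which restricts viral entry, stood at 1773 against 1070.1 CPM (log2 ratio 0.73, 0.55 to 0.91), whereas its close relative Ifitm2 had a log2 ratio of 0.32. Ly6c1 and Ly6a, small surface proteins that interferon induces, had log2 ratios of 0.77 (0.52 to 1.02) and 0.67 (0.32 to 1.02), and reads of Ly6c1 may be shared with near-identical family members. With an equal mixture of the subclusters in both libraries Ly6c1 stood at 0.57, under the limit. Ly6e (0.32) and Bst2 (0.25) did not reach the limit. Irf1, a transcription factor of the interferon response, had a log2 ratio of -0.33 (-0.92 to 0.27).

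**Figure D3:**
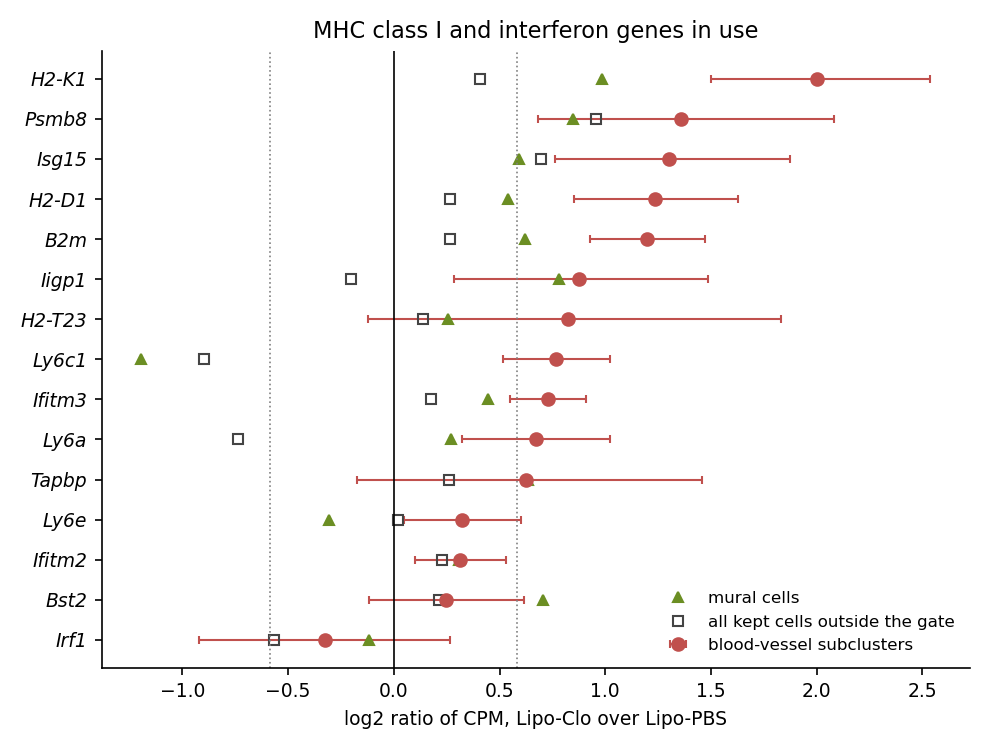
Log2 ratio of CPM, Lipo-Clo over Lipo-PBS (x axis), of the 15 MHC class I and interferon genes in use in blood-vessel endothelium (y axis). Red points are blood-vessel endothelium with exact counting intervals, triangles mural cells, squares all kept cells outside the gate and dotted lines 1.5-fold, and 14 of the 15 red points lie above 0, from 0.25 (Bst2) to 2.00 (H2-K1).

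Promoters are shown for this list because 11 of its 15 genes in use were higher. The RefSeq promoter table (GRCm38.p6, 250 bases before to 50 after each start) held 12 of the 15 genes, and was searched on both strands for the core of an interferon-stimulated response element, GAAA followed by any 2 bases and GAAA again. It was found in 6 of the 12 (H2-T23, B2m, Ifitm2, Ifitm3, Bst2, Isg15) and in 3.99% of all 27025 promoters. Of the 11 higher genes 9 had a promoter there and 4 held it (H2-T23, B2m, Ifitm3, Isg15). TTCNNNGAA, the letters of an interferon-gamma activated site, was found in 4 of the 12 (Psmb8, Ifitm3, Irf1, Bst2), in 2 of the 9 higher genes (Psmb8, Ifitm3) and in 9.55% of all. The list was chosen for its response to interferon, so nothing about these data is read from its share. A match describes letters and is not a binding site. Below are 90 bases of 3 of these promoters, 5′ to 3′ on the gene's strand, with the matches to the first motif in capitals. They are chr2:122147508-122147597 on the plus strand for B2m, chr17:36032776-36032865 on the minus strand for H2-T23, and chr4:156200847-156200936 on the minus strand for Isg15, whose capitals hold 3 overlapping matches.
B2m: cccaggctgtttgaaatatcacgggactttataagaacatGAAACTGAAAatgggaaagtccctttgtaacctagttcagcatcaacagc
H2-T23: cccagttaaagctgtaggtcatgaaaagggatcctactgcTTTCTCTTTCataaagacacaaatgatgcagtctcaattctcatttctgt
Isg15: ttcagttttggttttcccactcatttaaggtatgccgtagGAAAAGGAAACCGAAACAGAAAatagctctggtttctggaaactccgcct
The first match begins 139 bases before the start in B2m, 124 in H2-T23, where it lies on the opposite strand, and 78 in Isg15.

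H2-K1, H2-D1 and B2m had ratios above 0 in each subcluster that was not mixed. For H2-K1 the log2 ratio was 1.98 (1.24 to 2.81) in the unnamed subcluster (108 against 17 UMIs) and 1.11 (0.24 to 2.04) in the capillary-like (36 against 17 UMIs). It was 3.29 (2.01 to 4.85) in the venous-like (31 against 6 UMIs) and 0.98 (0.24 to 1.69) in the lymphatic-like (27 against 46 UMIs). B2m, from the same subclusters in that order, had 0.96, 1.14, 1.67 and 0.96, and H2-D1 had 1.24, 0.44, 1.92 and 0.90. The H2-D1 interval in the capillary-like subcluster was -0.32 to 1.22. Isg15 did not keep 1 direction, at 2.54 (1.55 to 3.72) in the unnamed and -0.97 (-2.40 to 0.34) in the capillary-like subcluster. The median of the list, over genes with 20 or more UMIs in a subcluster, was 0.82 in the unnamed (17 genes), 0.16 in the capillary-like (12), 0.68 in the venous-like (12) and 0.35 in the lymphatic-like (11). In the mixed subclusters it was 0.37 in the mesenchymal (15), 0.78 in the neutrophil (13) and -0.52 in the epithelial (10).

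**Figure D4:**
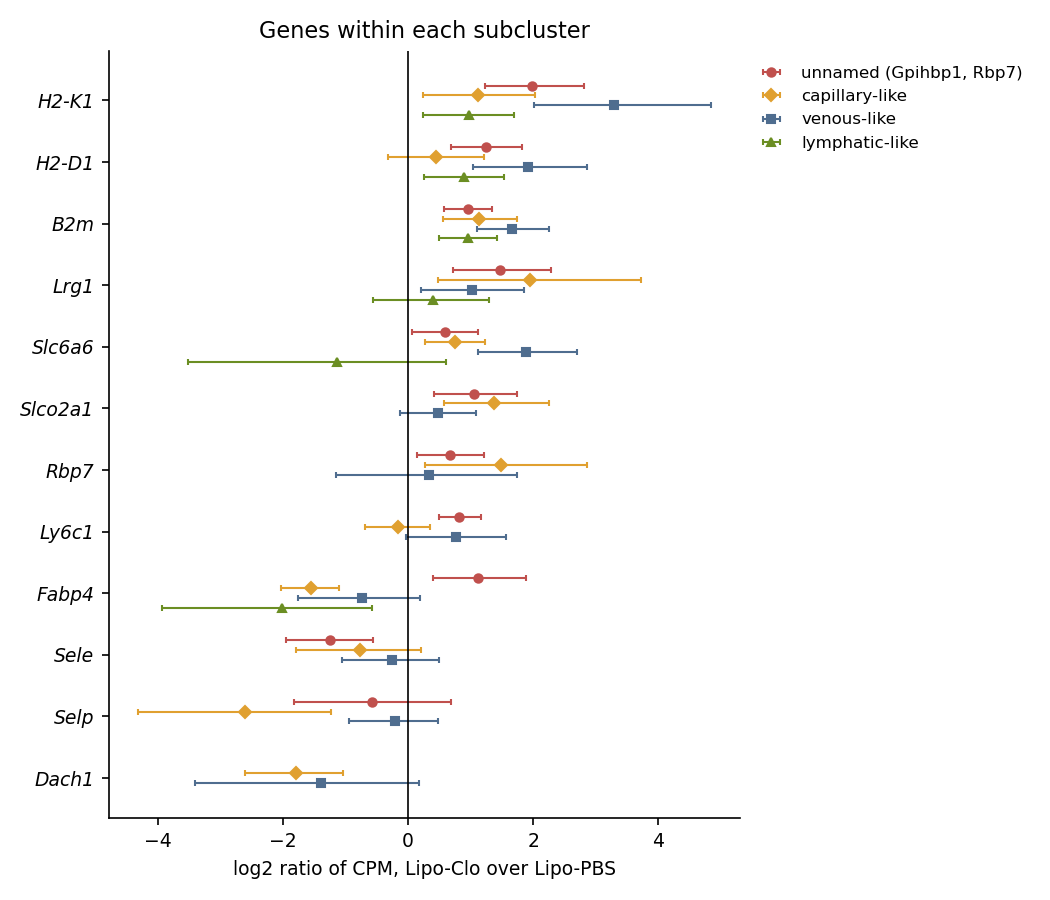
Log2 ratio of CPM, Lipo-Clo over Lipo-PBS (x axis), of 12 genes (y axis) within the unnamed, capillary-like, venous-like and lymphatic-like subclusters, with exact counting intervals, where a gene had 20 or more UMIs. H2-K1, H2-D1 and B2m lie above 0 in all 4, while Fabp4 lies at 1.11 in the unnamed and -1.56 in the capillary-like subcluster.

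Endothelial genes were ranked by how far the counting interval lay from 0, among 747 genes with a level in blood-vessel endothelium 2-fold or more over the cells outside the gate in both libraries. Beside H2-D1, Ly6c1 and Iigp1 the 10 highest were Lrg1, Rbp7, Slc6a6, Aqp1, Cd300lg, Slco2a1 and Mctp1. Lrg1, a secreted glycoprotein with a role in angiogenesis, stood at 308 against 129.8 CPM (log2 ratio 1.25, 0.76 to 1.76). Neutrophils also make it, and its log2 ratio outside the gate was 2.01. Within the unnamed, capillary-like and venous-like subclusters it was 1.47, 1.96 and 1.03, and with cells thinned to 1000 UMIs it was 0.63 overall.

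Transporters and channels were among these genes. Slc6a6, the taurine transporter, stood at 609.5 against 339 CPM (log2 ratio 0.85, 0.53 to 1.16). Slco2a1, the prostaglandin transporter, stood at 425 against 268 CPM (log2 ratio 0.67, 0.31 to 1.04). Aqp1, a water channel, stood at 546 against 321 CPM (log2 ratio 0.77, 0.44 to 1.10). All 3 had intervals above 0. With both libraries given an equal mixture of the subclusters their log2 ratios were 0.89, 0.90 and 0.58, with Aqp1 just under the limit. With thinned cells Slc6a6 stood at 0.57 and Slco2a1 at 0.52, and with the genes past 1.5-fold kept in the clustering Slco2a1 stood at 0.29 and Aqp1 at 0.37, all under the limit.

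Rbp7 and Cd300lg belong to subclusters that were larger shares of Lipo-Clo. Rbp7, a retinol-binding protein of endothelium, stood at 333 against 164 CPM (log2 ratio 1.02, 0.58 to 1.48), and at 0.75 with an equal mixture. Cd300lg, a surface glycoprotein of capillaries, stood at 187 against 101 CPM (log2 ratio 0.89, 0.32 to 1.49), and at 0.63 with an equal mixture and 0.57 with the genes past 1.5-fold kept in the clustering. Mctp1, a calcium-binding membrane protein, stood at 107 against 50.3 CPM (log2 ratio 1.09, 0.28 to 1.95), but its sign turned with the clustering, to -0.16 at resolution 1.

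The 10 lowest of the ranking were Dach1, Ralgapa2, Hmcn1, Selp, St6gal1, Lrch1, Magi3, Enpp6, Jmjd1c and Sele. Dach1, a transcription factor that promotes arterial growth, stood at 75.3 against 254 CPM (log2 ratio -1.76, -2.39 to -1.16), and at -1.57 with an equal mixture. Within the capillary-like subcluster it had -1.79 (-2.61 to -1.04), from 19 against 67 UMIs. In the unnamed it had -0.85 (-2.43 to 0.69, 8 against 9 UMIs) and in the venous-like -1.40 (-3.41 to 0.18, 4 against 20 UMIs). With the genes past 1.5-fold kept in the clustering, Dach1 led a subcluster of 8 and 21 cells, which the equal mixture does not level. Ralgapa2, a regulator of Ral GTPases, stood at 134 against 360.2 CPM (log2 ratio -1.43, -1.91 to -0.97), and St6gal1, a sialyltransferase, at 68.0 against 183 CPM (log2 ratio -1.43, -2.12 to -0.77). Both lead the venous-like subcluster, and an equal mixture brought them to -0.76 and -0.74. Hmcn1, an extracellular matrix protein, had a log2 ratio of -1.26, and -0.84 with an equal mixture.

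Selectins, which venules use to capture leukocytes, were lower. Selp, for P-selectin, stood at 107 against 265 CPM (log2 ratio -1.31, -1.86 to -0.78), and Sele, for E-selectin, at 165 against 323 CPM (log2 ratio -0.97, -1.42 to -0.53). Within the venous-like subcluster, where both are markers, the log2 ratios were -0.21 (-0.94 to 0.48) for Selp (26 against 57 UMIs) and -0.26 (-1.05 to 0.49) for Sele (22 against 50 UMIs), and both intervals took in 0. In the capillary-like subcluster Selp had -2.60 (-4.32 to -1.23), from 5 against 31 UMIs in 5.06% of its 158 cells, so that a few cells carry this value, and in the unnamed subcluster Sele had -1.25 (-1.96 to -0.57), from 31 against 46 UMIs. With an equal mixture Selp stood at -0.75, and with thinned cells Sele stood at -0.49, under the limit. Whether subclusters differ was not tested.

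Of 8 venous genes in use, 4 were lower (Selp, Sele, Ephb4 and Icam1) and 1 higher (Lrg1), beside 13% and 7.83% of all genes, with a median log2 ratio of -0.59. Icam1 was in use through Lipo-PBS alone. Without the filter 6 of the 16 measured had more CPM in Lipo-Clo and 9 less, beside 6651 and 8515 of all genes. Icam1, a ligand of leukocyte integrins, stood at 68.0 against 124 CPM (log2 ratio -0.87, -1.60 to -0.17), and Ephb4, the venous ephrin receptor, at 92.3 against 143 CPM (log2 ratio -0.63, -1.27 to -0.01). Vwf, stored in the same granules as P-selectin, stood at 165 against 167 CPM. The median was -0.42 with an equal mixture and 0.23 within the venous-like subcluster (9 genes).

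Capillary, arterial and tip cell lists were read beside the same shares of all genes, 7.83% higher and 13% lower. Of 7 capillary genes, Cd300lg was higher and Fabp4 lower, with a median of 0.15. Over the whole gate 3 of the 7 were higher and 1 lower, beside 4.25% and 12.7%, with a median of 0.52 that was -0.03 with an equal mixture of the subclusters. Fabp4, a fatty acid binding protein, stood at 340.0 against 593 CPM (log2 ratio -0.80, -1.12 to -0.49). Its direction differed by subcluster, at 1.11 (0.40 to 1.89) in the unnamed (73 against 21 UMIs) and -1.56 (-2.03 to -1.10) in the capillary-like (54 against 162 UMIs). It was found in 11.9% and 14.6% of their cells, so a minority of cells carry these values. Whether the subclusters differ was not tested. Of 7 arterial genes Gja4, a gap junction protein, was higher at 119 against 66.2 CPM (log2 ratio 0.85, 0.12 to 1.602), in use through Lipo-Clo alone, and none was lower, with a median of 0.17. Of 10 tip and sprouting genes, Ramp3, an adrenomedullin receptor partner, was higher and none was lower, with a median of 0.01.

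Signalling lists of vessel growth were read beside the 7.83% higher and 13% lower over all genes of blood-vessel endothelium. None of 6 VEGF receptor and ligand genes in use passed it, and their median of -0.13 was 0.06 with an equal mixture. None of 5 Notch genes passed it, with a median of 0.05 and with the receptor Notch1 at 211 against 204 CPM. Of 4 angiopoietin and TIE genes, Tek, the receptor of angiopoietins, was lower at 277 against 416 CPM (log2 ratio -0.59, -0.95 to -0.23), with Tie1 at 308 against 302 CPM. Of 17 BMP and TGF-β genes, Tgfbr3, Smad1 and Smad2 were lower and none was higher, with a median of -0.27. That median was -0.02 with cells thinned to 1000 UMIs and -0.43 with the genes past 1.5-fold kept in the clustering. Smad2 was in use through Lipo-PBS alone. Without the filter 11 of the 31 measured had more CPM in Lipo-Clo and 19 less, beside 6651 and 8515 of all genes. Smad1, a BMP effector, stood at 112 against 177 CPM (log2 ratio -0.67, -1.24 to -0.10), and Id3, a target of BMP signalling, at 1778 against 1483 CPM (log2 ratio 0.26, 0.10 to 0.42).

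For structural genes the shares of all genes were again 7.83% higher and 13% lower. None of 15 junction genes passed the limit, with a median of -0.18. Of 15 basement membrane genes, Lama4, a laminin chain of vessels, was lower at 384 against 599 CPM (log2 ratio -0.64, -0.94 to -0.34) and none was higher, with the collagen chain Col4a1 at 2982 against 2956 CPM. Of the 29 pan-endothelial genes Lmo2, a transcriptional adaptor, was higher, Tek and Calcrl were lower and the median was -0.01, whereas the same genes had a median of -1.17 in all kept cells outside the gate.

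**Figure D5:**
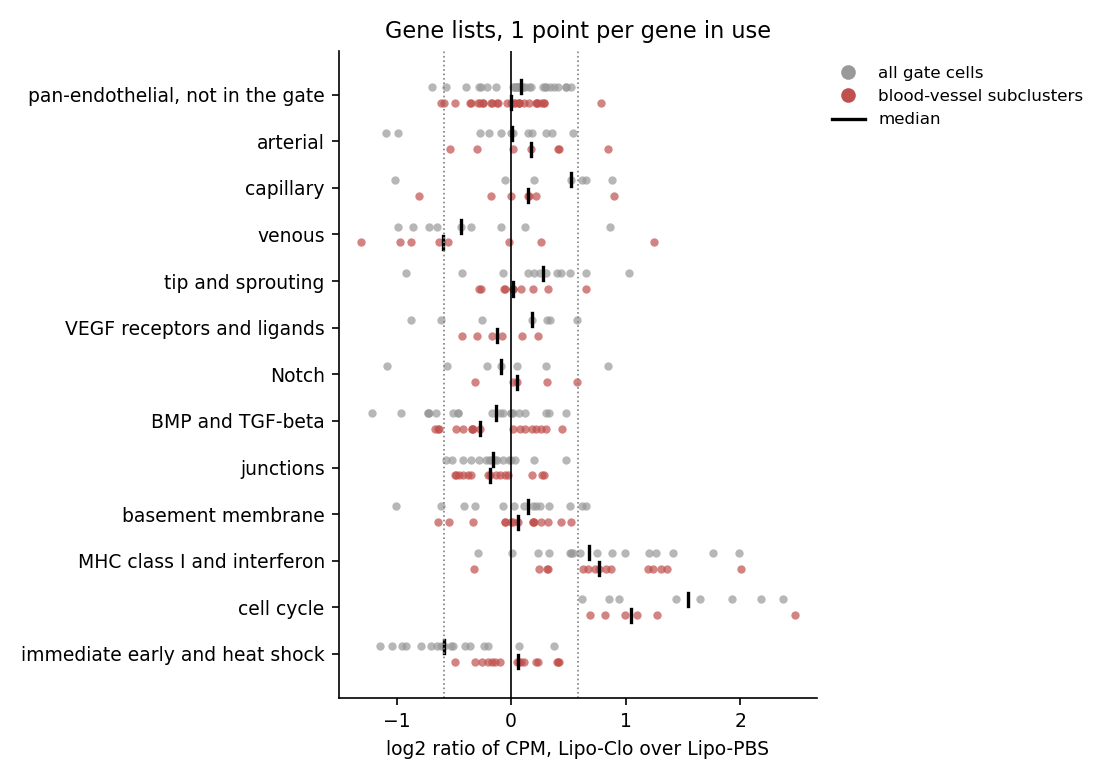
Log2 ratio of CPM, Lipo-Clo over Lipo-PBS (x axis), of each gene in use in 13 lists (y axis), over all gate cells in grey and blood-vessel endothelium in red, with medians as black marks and 1.5-fold as dotted lines. In blood-vessel endothelium the MHC class I and interferon list (median 0.77) and the cell cycle list (1.05) lie to the right and the venous list (-0.59) to the left.

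Cell cycle genes summed to 4782 against 2426 CPM over the 24 measured in blood-vessel endothelium. Beside 6651 of all genes with more CPM in Lipo-Clo and 8515 with less, 22 of the 24 had more, many from few UMIs. Few were in use, and 2 of the 6 (Birc5 and Pcna) passed that filter through Lipo-Clo alone, so that a higher ratio was partly a condition of being counted. The 6 (with Stmn1, Hmgb2, Tubb5 and H2az1) were higher, with a median log2 ratio of 1.05, beside 7.83% higher over all genes. Over the gate the 8 in use were higher, 2 of them (Cenpa and Birc5) in use through Lipo-Clo alone, beside 4.25% of all genes, and in cells outside the gate these had a median of 0.86. Birc5, survivin, which acts in mitosis, stood at 206 against 37.1 CPM (log2 ratio 2.48, 1.65 to 3.41), but at 0.90 with cells thinned to 1000 UMIs. Stmn1, a microtubule regulator, stood at 333 against 138 CPM (log2 ratio 1.27, 0.80 to 1.76). Hmgb2, a chromatin protein abundant in dividing cells, stood at 539 against 270.2 CPM (log2 ratio 1.00, 0.65 to 1.35). Of the Birc5 UMIs of blood-vessel endothelium, 79 of 85 in Lipo-Clo and 9 of 14 in Lipo-PBS lay in the unnamed subcluster. Among cell cycle genes with 20 or more UMIs, 7 of 14 were higher and 1 lower in the unnamed subcluster, with a median of 0.58, beside 11.4% higher over all genes with as many UMIs there. In the capillary-like 1 of 4 was higher and none lower (median 0.47, all genes 13% higher). In the venous-like 1 of 5 was higher and 2 were lower (median -0.02, all genes 16.7% higher and 15.2% lower). In the lymphatic-like 10 of 13 were higher and none lower (median 0.68, all genes 14.6% higher).

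Immediate early and heat shock genes depended on the cells counted. Over the gate 9 of 17 in use were lower and none higher, beside 12.7% and 4.25% of all genes, with a median of -0.59 and Fos, an immediate early transcription factor, at 479 against 1061 CPM. In blood-vessel endothelium none of 16 passed the limit, with a median of 0.06 and Fos at 389 against 482 CPM. Among genes with 20 or more UMIs, 5 of 15 were lower and 1 higher in the capillary-like (median -0.56, all genes 15.6% lower and 13% higher), 4 of 14 were higher and none lower in the venous-like (median 0.37, all genes 16.7% higher and 15.2% lower), and 2 of 17 were higher and none lower in the unnamed (median 0.14, all genes 11.4% higher and 19% lower). The difference between subclusters was not tested.

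Lymphatic genes summed to 2735 against 5248 CPM over the gate. Beside 10493 of all genes with less CPM in Lipo-Clo and 8033 with more, each of the 12 measured had less. Of the 11 in use, 9 passed that filter through Lipo-PBS alone, which partly fixes their direction. These 11 were lower, beside 12.7% of all genes, with a median of -1.09. The same genes had a median of -1.11 in all kept cells outside the gate, where 9 of 11 were lower. Beside them, 448 of all 4188 genes were lower there, with a median of -0.14. In mural cells the lymphatic genes had a median of -1.35. Prox1 stood at 41.4 against 144 CPM and Lyve1, a hyaluronan receptor, at 70.1 against 234 CPM. Within the lymphatic-like subcluster the list had a median of -0.06 over 12 genes, from 100545 against 337293 UMIs. There Mmrn1, a matrix protein of lymphatic vessels, had a log2 ratio of 0.07 (-0.22 to 0.35), Prox1 -0.60 (-1.15 to -0.08) and Lyve1 -0.47 (-0.87 to -0.07). Ccl21a, the chemokine that draws dendritic cells into lymphatics, had 0.44 (0.36 to 0.52), though its reads may be shared with near-identical copies.

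The ranking over the whole gate, among 508 genes, mixed these sources. Its 10 lowest were Fgl2, Lyve1, Prox1, Cavin2, Gpm6a, Nts, Klhl4, Reln, Mmrn1 and Ctnnal1, of which Fgl2, Lyve1, Prox1, Nts, Reln and Mmrn1 lead the lymphatic-like subcluster. Its 10 highest were Iigp1, Slc6a6, Slco2a1, Ly6c1, Lrg1, Ramp3, Tnfsf10, Hspg2, Exoc3l2 and Cd300lg. Tnfsf10, the death ligand TRAIL, had a log2 ratio of 1.06 (0.47 to 1.67) over the gate, and Hspg2, the basement membrane proteoglycan perlecan, 0.62 (0.46 to 0.79). With an equal mixture they stood at 0.57 and 0.48, both under the limit. In blood-vessel endothelium they had 0.66 (-0.03 to 1.37) and 0.43 (0.22 to 0.65). Among all genes the 5 highest were S100a8, S100a9, Camp and Ngp, which neutrophils make, and Amtn of the enamel organ. The 5 lowest were Bglap, Fgl2, Fndc1, Ctsk and Lox, of which Bglap is a gene of bone-forming cells. Ctsk is a gene of osteoclasts, but over both libraries it was among the leading genes of the mesenchymal mixed subcluster. It stood there at 296 CPM, with 49.4 CPM in the other members, and the source of its RNA was not tested. In blood-vessel endothelium the same choice gave Birc5, H2-K1, Cks1b, B2m and Odam as the highest and Nlgn1, Pcdh7, Plac9, Dach1 and Dcn as the lowest, with Odam, an enamel organ protein, at 452 against 183 CPM and Dcn, a proteoglycan of mesenchyme, at 43.7 against 159 CPM.

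Mitochondrially encoded transcripts were 0.315% of endothelial UMIs in Lipo-Clo and 1.73% in Lipo-PBS. All 12 in use were lower, beside 12.7% of all genes. Their median log2 ratio was -2.50, beside -2.21 in mural cells and -2.15 in all kept cells outside the gate. The difference thus ran through all 3 sets of cells. With totals that left out mitochondrial, globin and ribosomal genes, 184 genes were higher and 521 lower over the gate, against 178 and 531. In blood-vessel endothelium the counts were 237 and 349, against 224 and 372. Beyond that scaling, the part of the mitochondrial difference in the other ratios was not tested.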

How the data were processed

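UMI counts per gene and cell are used as the authors deposited them, with no further normalization. The submitters' processing notes name Cell Ranger 3.1.0, Seurat 3.1.1 and the builds GRCm39 and mm39, and the matrix header names Cell Ranger 8.0.0. Lipo-Clo held 9362 cells and 31053404 UMIs, and Lipo-PBS 9653 cells and 30537834 UMIs. UMIs of member cells were summed per library and scaled to CPM. Genes were counted by size alone, and no test was made. Subclusters came from scanpy 1.11.5 and leidenalg 0.10.2 (1000 variable genes, 15 components, 15 neighbours, resolution 0.6, seed 1). Doublets were not removed. In an alternative, the highest Scrublet scores were left out, because its automatic threshold called 0% and 0.0112% of cells. TMM and DESeq2 factors came from edgeR 4.0.16 and DESeq2 1.42.0, used for scaling only. The ratio and its interval were checked on Poisson counts simulated from the pooled members, with known changes put in. Such counts leave out the clumping of UMIs in few cells. The check thus cannot show whether the intervals are wide enough for these data. An equal mixture weighted each subcluster alike in both libraries.

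The members, gene lists and rules were chosen with earlier results of these data known. Named genes were the 6 gate genes, the 10 in each direction with the interval farthest from 0 among genes enriched 2-fold in endothelium, the 5 in each direction among all genes, and, of each list, abundant members and those past the limit. Mitochondrial, globin, ribosomal protein and sex-linked genes were left out of the rankings. The same rankings in blood-vessel endothelium, that set of subclusters and the rule for mixed subclusters were added after the data were seen.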

Additional observations from a re-analysis of the deposited data

Results flagged for a closer look

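Among genes of the blood-vessel rankings whose ratio had the opposite sign in mural cells, 2 had both counting intervals clear of 0. Genes named only over the gate were not included. Of those, S100a8 (-0.76 in blood-vessel endothelium and 2.01 in mural cells), S100a9 (-0.94 and 1.97) and Hspg2 (0.43 and -0.40) also had both intervals clear of 0. The difference between blood-vessel endothelium and mural cells was not tested. In blood-vessel endothelium S100a8 and S100a9 were in use through Lipo-Clo alone. A larger share of Lipo-Clo than of Lipo-PBS cells thus held them, though their CPM was lower in Lipo-Clo. Signs were opposite in other named genes too, such as St6gal1 (-1.43 and 0.08), whose mural interval took in 0. Ly6c1 had a log2 ratio of 0.77 in blood-vessel endothelium and -1.19 in mural cells (20 against 77 UMIs, in under 10% of cells of either library), a gap of 1.96. Aqp1 had 0.77 and -0.46 (58 against 134 UMIs in mural cells), a gap of 1.23. The sign was not particular to mural cells. In all kept cells outside the gate the log2 ratios were -0.90 (-1.02 to -0.78) for Ly6c1 and -0.68 (-0.76 to -0.60) for Aqp1. Those cells include the 57 and 219 that the limits left out of the gate. The 29 pan-endothelial genes had median log2 ratios of -0.37 in mural cells (10 above 0 and 15 below) and -1.17 outside the gate (1 above and 28 below). A ratio below 0 outside the gate was thus not particular to Ly6c1 and Aqp1.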

How the results depend on the processing

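No paired analysis was possible because Lipo-Clo and Lipo-PBS are 1 library each. Endothelial, lymphatic-like and blood-vessel shares moved by less than their counting intervals under every alternative run for them. The endothelial log2 ratio lay between -0.38 (gate of 3 UMIs) and -0.13 (without the mixed subclusters). The share before the limits on other cells was not among these alternatives. Cells counted by 4 UMIs of lymphatic markers had -2.23, outside the interval of the lymphatic-like subcluster (-2.12 to -0.80). Counts of genes past the limit moved most. Over the gate, 178 higher and 531 lower became 331 higher with cells thinned to 1000 UMIs, 309 lower with an equal mixture of subclusters, 819 lower with stricter limits on other cells, 923 and 1710 with a filter of 20 summed UMIs, 2042 and 3074 with no filter, and 49 and 185 at 2-fold. In blood-vessel endothelium, 224 and 372 became 360 higher with DESeq2 factors, 361 and 559 with thinned cells, 245 lower with an equal mixture, 567 lower with the genes past 1.5-fold kept in the clustering, 648 and 975 with 20 summed UMIs, 2126 and 2746 with no filter, and 34 and 85 at 2-fold. Over the gate S100a8 and S100a9 turned to -0.10 and -0.21 without the mixed subclusters. In blood-vessel endothelium alone S100a8 stood at -0.76, S100a9 at -0.94, Ngp at -0.66, Reln at 2.68, Mmrn1 at 0.87 and the immediate early median, over the genes in use in the gate, at 0.0523. Mctp1 turned to -0.16 at resolution 1 and to -0.32 with the genes past 1.5-fold kept. The other 28 of 29 named genes of blood-vessel endothelium kept their direction in every alternative run, as did 24 of 29 over the gate. The MHC class I and interferon median lay between 0.60 and 0.89 in blood-vessel endothelium, and the cell cycle median between 0.64 and 1.30. Over the gate these medians lay between 0.43 and 1.13 and between 0.80 and 1.71. Causes of these moves were not tested. Blood-vessel subclusters, thinning there and the removal of mixed subclusters are alternatives chosen after seeing the data. With 1 library per condition, differences between mice or preparations cannot be told apart from the treatment.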

Other observations

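In blood-vessel endothelium, of 10 caveolar and scavenging genes in use, Scarf1, Cav2 and Cavin2 were lower and none was higher, beside 13% lower and 7.83% higher over all genes, with a median log2 ratio of -0.29. Scarf1 and Cav2 were in use through Lipo-PBS alone. Without the filter 8 of the 19 measured had more CPM in Lipo-Clo and 11 less, beside 6651 and 8515 of all genes. Cavin2, a coat protein of caveolae, stood at 97.1 against 201 CPM (log2 ratio -1.05, -1.64 to -0.48), and Cav1, their main membrane protein, at 333 against 474 CPM (log2 ratio -0.51, -0.84 to -0.18). Of 8 angiocrine factors, Pdgfd, Kitl and Ccn1 were lower and none was higher, beside the same shares of all genes, with a median of -0.31. Ccn1 was in use through Lipo-PBS alone. Without the filter 11 of the 30 measured had more CPM in Lipo-Clo and 18 less, beside 6651 and 8515 of all genes. Kitl, the ligand of the KIT receptor, stood at 163 against 257 CPM (log2 ratio -0.66, -1.13 to -0.20), and Cxcl12, a chemokine that retains blood-forming cells, at 583 against 439.7 CPM (log2 ratio 0.41, 0.12 to 0.70).

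Glycolytic genes of blood-vessel endothelium lay above 0 in 9 of 9 in use, beside 1311 of all 2861 genes. Of the 9, Gpi1 and Pgam1 were higher, beside 7.83% of all genes, and both, with Hk1, were in use through Lipo-Clo alone. Without the filter 11 of the 17 measured had more CPM in Lipo-Clo and 6 less, beside 6651 and 8515 of all genes. The list had a median of 0.39, beside 0.35 outside the gate. In blood-vessel endothelium nuclear genes of oxidative phosphorylation had a median of 0.26 over 73 genes and ribosomal protein genes 0.29 over 80, with 0.27 and 0.24 outside the gate.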
